A study of Mus musculus with 6 samples.

Results

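Regulators and matrix genes of cartilage formation were examined in mouse aortic cultures: the transcription factor genes Sox9, Sox5 and Sox6, and the matrix genes Acan, Hapln1, Comp, Matn2, Matn3, Matn4 and Chad. They were taken by symbol, 10 of the 54532 genes in the deposited count table, with Col2a1 added as context. The set was chosen by its levels in the female and male libraries and the difference between them, so those values, the calls made on them and their counting intervals are given as a description and not as tests of the members. Poly-A RNA-seq was made from 3 female and 3 male cultures of wild-type mice, which the labels call MAEC and endothelial, and enter under cell line. No culture was treated, and all were kept in an F-12 based medium that contained fetal bovine serum, heparin and growth factors for endothelial cells. The labels give neither strain nor age, and do not tell if replicates of either sex were taken from different mice or dishes. Spreads and p-values therefore describe these samples and may be technical.

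In the growth plate and other cartilages, SOX9 switches on the chondrocyte programme, and SOX5 and SOX6, which lack an activation domain of their own, bind beside it and strengthen its action. Their shared targets include the fibrillar collagen gene Col2a1 and the genes of the proteoglycan network. In that network aggrecan (Acan) is bound to hyaluronan by a link protein (Hapln1), and matrilins (Matn genes), COMP and chondroadherin (Chad) tie the fibrils, the proteoglycans and the cells together. In arteries the same genes are known from calcifying lesions and heart valves, where vascular cells can take on a chondrocyte-like programme.

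All 3 SOX members encode an HMG box, the DNA-binding fold of the family. The longest run of identical coding bases between any pair of them was 18 bases, between Sox9 and Sox5, and it lies in that box. Sox5 and Sox6, the closer relatives in function, shared at most 17 bases in a row, outside it. The stretches are shown because they bear on whether a read of one gene could be counted for another. They are GENCODE M21 coding sequence on GRCm38, read 5′ to 3′ along the gene, with the identical run in capitals. The Sox9 stretch lies in exon 1 on the plus strand at chr11:112782900-112782947 and the matching Sox5 stretch in exon 13 on the minus strand at chr6:143841229-143841276.
Sox9: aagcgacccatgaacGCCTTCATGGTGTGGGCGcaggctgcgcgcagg
Sox5: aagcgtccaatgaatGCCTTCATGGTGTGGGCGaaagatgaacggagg
The run that Sox5 shares with Sox6 lies in exon 8 of both, on the minus strand, at chr6:143941370-143941416 and chr7:115580578-115580624.
Sox5: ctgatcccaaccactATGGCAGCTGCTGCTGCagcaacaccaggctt
Sox6: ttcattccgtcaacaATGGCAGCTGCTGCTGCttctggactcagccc
Among the matrilins the longest such run was 17 bases, between Matn2 and Matn4. Neither the read length nor how reads with several matches were treated is stated in the labels.

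Library totals ran from 17410996 to 22993574 counts. Levels are CPM, counts scaled to the library total with TMM factors, and a mean is followed by its SD over 3 libraries. A count of 0 in a library allows up to 0.128 to 0.171 CPM, taking 3 counts as the limit, and 0 over the 3 libraries of a sex allows 0.0475 CPM in female and 0.0493 CPM in male cultures. These limits, and the 95% intervals of count ratios below (exact binomial), cover counting error only. Male replicate 3 was unlike the other 2 of its sex: its log2 CPM over the 14932 tested genes correlated at 0.974 and 0.982 with theirs, against 0.992 between those libraries and 0.990 to 0.992 among the female libraries. The endothelial label was not borne out by its defining markers, since Cdh5, Tie1, Cldn5 and Robo4 had 0 counts in every library and 12 of 14 endothelial markers stayed under 1 CPM everywhere. The summed level of the 14 was 55.4 to 66.1 CPM in female and 62.9 to 83.4 CPM in male cultures, most of it Flt1.

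The 10 genes fell into expressed and nearly silent ones. Sox9, Sox5 and Matn2 exceeded 10 CPM in every library, Matn4 stood between 0.883 and 3.32 CPM, and the other 6 stayed under 1 CPM in every library. The 4 genes above 1 CPM were also the 4 that passed the filter on low counts, so 6 members had no fitted fold change. Of the 4, Sox9 and Sox5 were called lower in female, and Matn2 and Matn4 were not called (edgeR, adjusted p under 0.05). Over all tested genes 18.3% were called, 8.62% lower and 9.68% higher. In 3 members, Sox9, Sox5 and Sox6, every female library lay below every male library, and in the other 7 the sexes overlapped. The libraries did not overlap in 35.9% of all tested genes, with the female ones below in 16.7%. As the members were chosen with this contrast known, nothing is read from these counts.

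**Figure D1:**
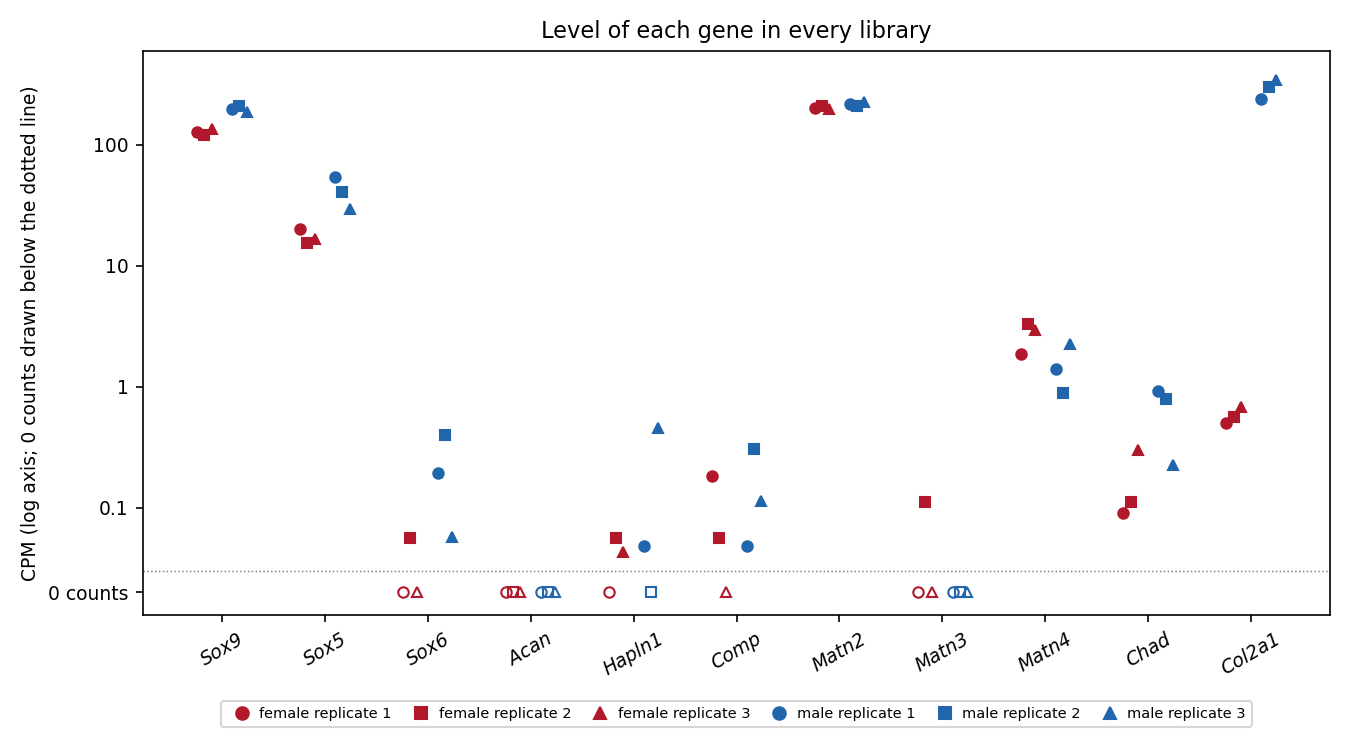
CPM of the 10 genes and of Col2a1 in each library on a log axis, with female libraries in red to the left and male libraries in blue to the right of each gene; open symbols below the dotted line are libraries with 0 counts. Sox9, Sox5 and Col2a1 are lower in all 3 female libraries, Matn2 lies near 200 CPM in all 6, and Acan has no count in any.

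Sox9, the regulator on which the others depend in cartilage, was abundant in both sexes and lower in female cultures. It occupies chromosome 11 from 112782224 to 112787760 on the plus strand, with a single annotated transcript of 3 exons, and no other gene overlaps it in GENCODE M21. Its level was 127, 120 and 135 CPM in the female libraries, against 196, 211 and 187 CPM in the male libraries. The ranges did not overlap, and the highest female library was well below the lowest male library. The means were 127 ± 7.04 CPM in female and 198 ± 12.3 CPM in male cultures, a log2 fold change of -0.64 ± 0.10 (SE) for female over male. The relative spread between libraries of a sex was small, and fits without any 1 library gave values between -0.69 and -0.60. Per kilobase of exon, Sox9 stood above 93.9% of the genes with any count in female and above 96.3% in male cultures. In bulk RNA, fewer cells expressing a gene and less RNA of it per cell cannot be told apart.

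Sox5 was the more divergent of the pair, at 20.1, 15.3 and 16.7 CPM in female libraries, against 54.2, 40.6 and 29.2 CPM in male libraries. All 3 female libraries lay below the male ones, but the male libraries themselves differed, with replicate 3 lowest. Sox5 averaged 17.4 ± 2.45 CPM in female and 41.4 ± 12.5 CPM in male cultures, a log2 fold change of -1.25 ± 0.22. Without male replicate 3 it was -1.45, and without male replicate 1, the highest, -1.01. The gene spans 953553 bases of chromosome 6 (143828425 to 144781977, minus strand), and its 14 annotated transcripts give 14376 exonic bases, so which isoform was counted is not known. The antisense gene Sox5os1 shares 1330 of those exonic bases and had 0 counts in all 6 libraries.

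Sox6, on chromosome 7 from 115470872 to 116038796, was all but absent. It had 0, 1 and 0 counts in the female libraries, against 4, 9 and 1 counts in the male libraries, or 1 count against 14. The ratio of male to female was 14.5, with a counting interval of 2.21 to 613. The sexes are separated by less than a single read, as male replicate 3 had 1 count in a library of similar size to female replicate 2. Sox6 did not exceed 0.397 CPM, so of the SOX trio of cartilage only Sox9 and Sox5 were measurable here.

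The order of the genes was read per kilobase of exon, with the exons of all annotated transcripts joined. That length can understate a gene with many transcripts, such as Sox5 or Matn2 (6 transcripts), against one with a single transcript, such as Sox9. On this scale Sox9 exceeded Sox5 by 21.9, 27.3 and 28.1 times in the female libraries and by 12.6, 18.1 and 22.2 times in the male libraries. The ranges overlapped through male replicate 3, whose ratio was just above the lowest female ratio. The order of levels differed at the top. In female cultures Matn2 (32.5 ± 0.760 CPM per kilobase) and Sox9 (30.8 ± 1.70) overlapped, with Sox9 at 0.948, 0.874 and 1.02 times Matn2 in the 3 libraries. In male cultures Sox9 (47.9 ± 2.98 CPM per kilobase) exceeded Matn2 (34.7 ± 1.40) in every library, by 1.37, 1.53 and 1.25 times. The order of Sox9 and Matn2 depends on the length used. In CPM, Matn2 was above Sox9 in every library except male replicate 2 (209 CPM for Matn2, 211 for Sox9). Below them came Sox5 at 1.21 ± 0.170 CPM per kilobase in female and 2.88 ± 0.870 in male cultures, Matn4 at 0.524 ± 0.145 in female and 0.294 ± 0.136 in male, and Chad at 0.0997 ± 0.0680 in female and 0.385 ± 0.219 in male. Matn4 and Chad overlapped in male cultures and were apart in female ones. Comp, Hapln1, Sox6 and Matn3 followed at no more than 0.0529 CPM per kilobase in either sex, with Acan at 0.

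**Figure D2:**
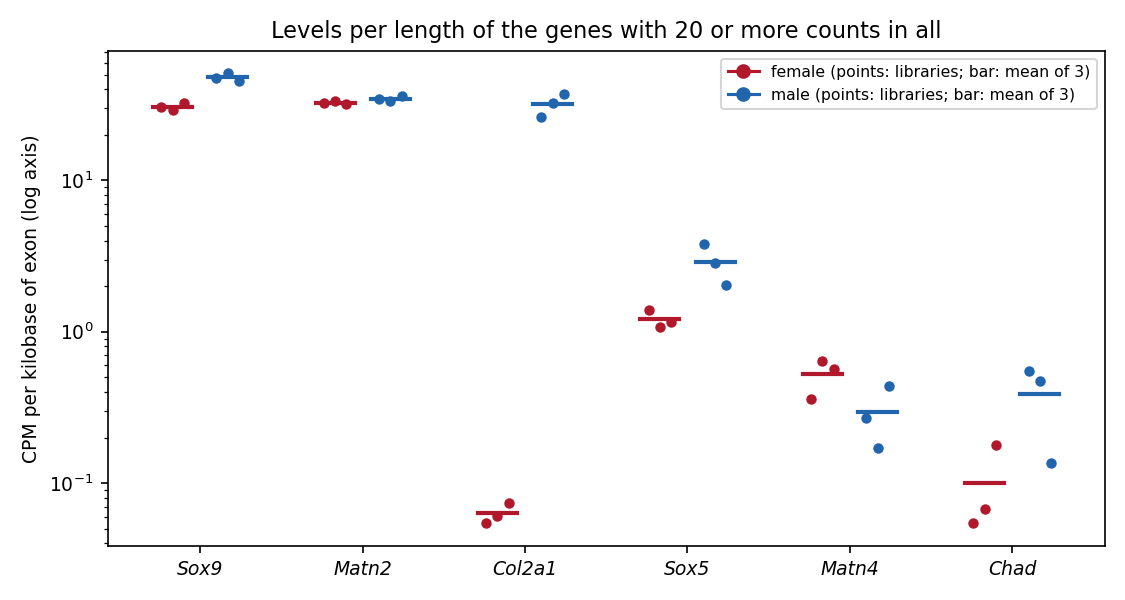
CPM per kilobase of exon on a log axis for the genes with 20 or more counts over all libraries; points are libraries and bars are means of 3, female in red to the left and male in blue to the right. Matn2 and Sox9 share the top in female cultures, Sox9 leads in male cultures, and Col2a1 is near the top only in male cultures.

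The aggrecan complex was missing. Acan, the large chondroitin sulfate proteoglycan that gives cartilage its resistance to compression (chromosome 7, 79053483 to 79115099), had 0 counts in all 3 female and all 3 male libraries. Hapln1, whose product locks aggrecan to hyaluronan (chromosome 13, 89539796 to 89611652), had 0, 1 and 1 counts in female libraries, against 1, 0 and 8 in male libraries. All but 1 of the male counts came from replicate 3, and the sexes overlapped. The ratio of male to female was 4.66, with a counting interval of 0.965 to 44.3.

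Among the adaptor proteins of the matrix, Matn2 was the only member expressed strongly, and it was the steadiest of all. Matrilin-2 is a filament-forming adaptor found in many connective tissues besides cartilage. Matn2 (chromosome 15, 34306677 to 34436273) stood at 202, 209 and 199 CPM in female libraries, against 217, 209 and 226 CPM in male libraries. The ranges overlapped barely, as female replicate 2 and male replicate 2 had nearly the same level, and the log2 fold change was -0.09 ± 0.10. Fits without any 1 library gave values between -0.13 and -0.07. The gene 9430069I07Rik on the opposite strand shares 70 exonic bases with it and had 7 counts in female and 4 in male libraries.

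Matn4, a shorter matrilin likewise found outside cartilage (chromosome 2, 164389393 to 164405160), was the only tested member with a higher mean in female cultures. It stood at 1.87, 3.32 and 2.95 CPM in female libraries, against 1.40, 0.883 and 2.28 CPM in male libraries. Male replicate 3 lay inside the female range, and the log2 fold change of 0.84 ± 0.41 was not called. Without male replicate 3 it was 1.24 and was called, in a fit that called 32.7% of all tested genes, with 16.2% called higher. Rbpjl, on the opposite strand, shares 149 exonic bases with Matn4 and had 3 counts in female and 4 in male libraries. Matn3, a matrilin restricted to cartilage (chromosome 12, 8947929 to 8972028), had 2 counts in female replicate 2 and 0 in the other 5 libraries.

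Chad encodes chondroadherin, a leucine-rich protein that binds collagen and cells (chromosome 11, 94565047 to 94569127). It had 2, 2 and 7 counts in female libraries, against 19, 18 and 4 in male libraries. Male replicates 1 and 2 were above every female library, whereas male replicate 3 lay inside the female range. The ratio of male to female over summed counts was 3.86 (counting interval 1.95 to 8.33), but the gene missed the filter. Without male replicate 3 it was tested and called lower in female, at a log2 fold change of -2.28, in a fit that called 16.4% of all genes lower. It was also fitted without the filter (-1.91) and without female replicate 1 (-1.61), 2 (-1.71) or 3 (-2.63), and was called in none of these. Its only overlap, with Acsf2 on the opposite strand, shared no exonic base. Comp, a thrombospondin that binds collagen fibrils in cartilage and tendon (chromosome 8, 70373558 to 70382066), had 4, 1 and 0 counts in female libraries, against 1, 7 and 2 in male libraries. The sexes overlapped, and the ratio of male to female was 2.07, with a counting interval of 0.645 to 7.73.

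**Figure D3:**
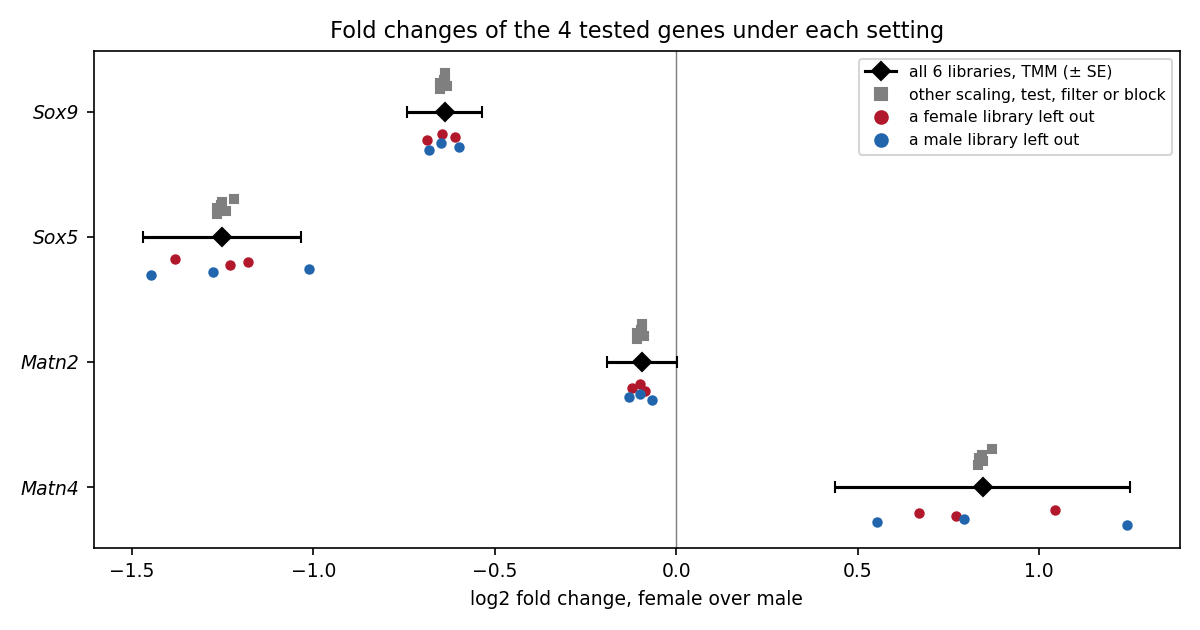
log2 fold change, female over male, of the 4 tested genes: black diamonds with SE are the fit to all 6 libraries, grey squares other scalings, tests, filters or the replicate block, and coloured points fits with a female (red) or male (blue) library left out. Sox9 and Sox5 stay below 0 in each, Matn2 lies between -0.13 and -0.07, and Matn4 ranges from 0.55 to 1.24.

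Col2a1, the fibrillar collagen gene that SOX9 activates in cartilage, differed far more than Sox9 and Sox5 did. It stood at 0.502, 0.562 and 0.683 CPM in female libraries, against 241, 299 and 344 CPM in male libraries. That is 37 counts in all against 17811, a ratio of male to female of 499 (counting interval 362 to 709). Over the same libraries Sox9 differed by a ratio of male to female of 1.56 and Sox5 by 2.40. The male library with the most Col2a1, replicate 3, had the least Sox9 and the least Sox5 of the 3, and was the library unlike the others of its sex. Acan, another target of the trio in cartilage, had no count in the male libraries. Whether Sox9 or Sox5 had a part in the level of Col2a1 here was not tested.

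Promoter windows from 250 bases before to 50 after the annotated start were found in RefSeq (GRCm38.p6) for 7 of the 10 members, 13 windows in all, 6 of them of Sox6. The windows of Acan, Matn3 and Chad are shown in part because these genes had few or no reads. Each line gives the 80 bases before the start, and capitals mark matches to GGGCGG or TATAAA on either strand. They lie at chr7:79053146-79053225, chr12:8947849-8947928 and chr11:94564967-94565046, all on the plus strand.
Acan: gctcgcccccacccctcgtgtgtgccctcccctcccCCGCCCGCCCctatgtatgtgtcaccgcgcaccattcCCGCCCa
Matn3: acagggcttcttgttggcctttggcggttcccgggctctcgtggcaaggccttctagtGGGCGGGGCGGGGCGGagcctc
Chad: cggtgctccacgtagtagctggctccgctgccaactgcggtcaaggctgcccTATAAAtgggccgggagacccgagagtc
The GC box letters GGGCGG were found in 35.7% of the 32851 RefSeq mouse promoter windows. The TATA box letters TATAAA were found in 13.6%. In Acan the first pair of matches overlap and the third lies apart, and in Matn3 all 3 overlap their neighbours. Chad holds a further GGGCGG upstream of the stretch shown. The RefSeq start of Acan used here lies before the start in the count table, and those of Sox5 (143947106) and Hapln1 (89540636) lie inside the gene, so that these windows are of internal starts. The Sox6 starts other than that at 116038744 lie well inside its gene, and the Matn4 start at 164404818 is internal as well. Of letters that SOX proteins favour, AACAAT was in 1 and ACAAAG in 5 of the 13 windows, all of them windows of Sox6, against 10.7% of all windows for AACAAT and 18.7% for ACAAAG. Apart from the window of the Sox6 start at 116038744, which held ACAAAG, these Sox6 windows were of internal starts. The Acan window was 74.0% G and C, above 95.2% of all windows, and that of Sox5 39.7%, above 9.48%. These are matches of letters and not sites of binding.

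Other matrix genes of cartilage were mostly silent as well. Of 24 listed genes 9 had 0 counts in all 6 libraries and 16 stayed under 1 CPM in every library, among them Col9a1, Snorc, Ucma and Matn1. Of the 8 tested, 0 were called higher, 2 lower and 6 not called, and their median log2 fold change was 0.36, against -0.01 over all tested genes. For this list and those below, the shares over all tested genes were 9.68% called higher and 8.62% lower. At an unadjusted p under 0.05 edgeR gave 3 genes of the list higher, and DESeq2 called 2 higher. Prelp, a leucine-rich proteoglycan that anchors basement membranes, was lower in female, at 11.3 ± 0.669 CPM against 48.9 ± 3.87 CPM in male cultures (log2 fold change -2.12 ± 0.13, edgeR adjusted p = 3.52e-06). Prg4, the lubricin of joint surfaces, was lower as well, at 2.24 ± 0.439 CPM in female cultures and 7.56 ± 2.36 CPM in male ones (-1.74 ± 0.29, edgeR adjusted p = 0.0022). The fibril collagen genes Col11a1 (17.3 ± 1.36 CPM in female, 15.1 ± 1.41 in male) and Col11a2 (3.08 ± 0.301 CPM in female, 2.11 ± 0.876 in male) were not called. Without male replicate 3, 2 genes of the list were called higher, Col27a1 and Cilp, named after their values were seen. That fit called 16.2% of all tested genes higher.

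Of 16 other SOX genes 11 stayed under 1 CPM in every library, and 5 were tested. None of the 5 was called higher by edgeR, and only Sox11, named here after its value was seen, was called lower (edgeR adjusted p = 0.00599). Sox11 had 1 count in female and 41 in male libraries, a ratio of male to female of 42.5 with a counting interval of 7.21 to 1718. At an unadjusted p under 0.05 edgeR gave 1 of the 5 higher, and DESeq2 called 0 higher. Sox4, at 103 ± 16.4 CPM in female cultures and 80.6 ± 27.0 CPM in male ones, and Sox12, at 36.8 ± 1.10 CPM in female and 34.5 ± 3.48 in male, were the most abundant and were not called.

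Genes of chondrogenic signalling and transcription went both ways. Of 25 tested genes of a list of 31, 6 were called higher in female, 6 lower and 13 not called, with a median log2 fold change of -0.05. Over all tested genes 9.68% were called higher and 8.62% lower. Pthlh, the peptide that holds back chondrocyte maturation, was lower in female, at 0.0679 ± 0.0598 CPM against 7.94 ± 1.82 CPM in male cultures (log2 fold change -6.83 ± 0.50, edgeR adjusted p = 1.24e-05). Foxa2, a factor of hypertrophic chondrocytes, was also lower, at 0.231 ± 0.158 CPM in female cultures and 3.01 ± 0.601 CPM in male ones (-3.64 ± 0.50, edgeR adjusted p = 0.000633). Fgf18, a growth factor that acts on growth plate chondrocytes, was higher in female, at 1.55 ± 0.590 CPM against 0.0953 ± 0.129 CPM in male cultures (3.91 ± 0.79, edgeR adjusted p = 0.00695). Ror2, a Wnt receptor of limb cartilage, was higher too, at 51.7 ± 3.24 CPM in female cultures and 11.0 ± 1.12 CPM in male ones (2.23 ± 0.13, edgeR adjusted p = 3.23e-06). The mesenchymal factor Prrx1 (355 ± 11.9 CPM in female, 450 ± 75.8 in male) and the BMP receptor gene Bmpr1a (163 ± 9.74 CPM in female, 179 ± 35.1 in male) were not called with all libraries, and were called lower without male replicate 3. Leaving out female replicate 1, female replicate 3 or male replicate 2 left 3 of the list called higher.

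**Figure D4:**
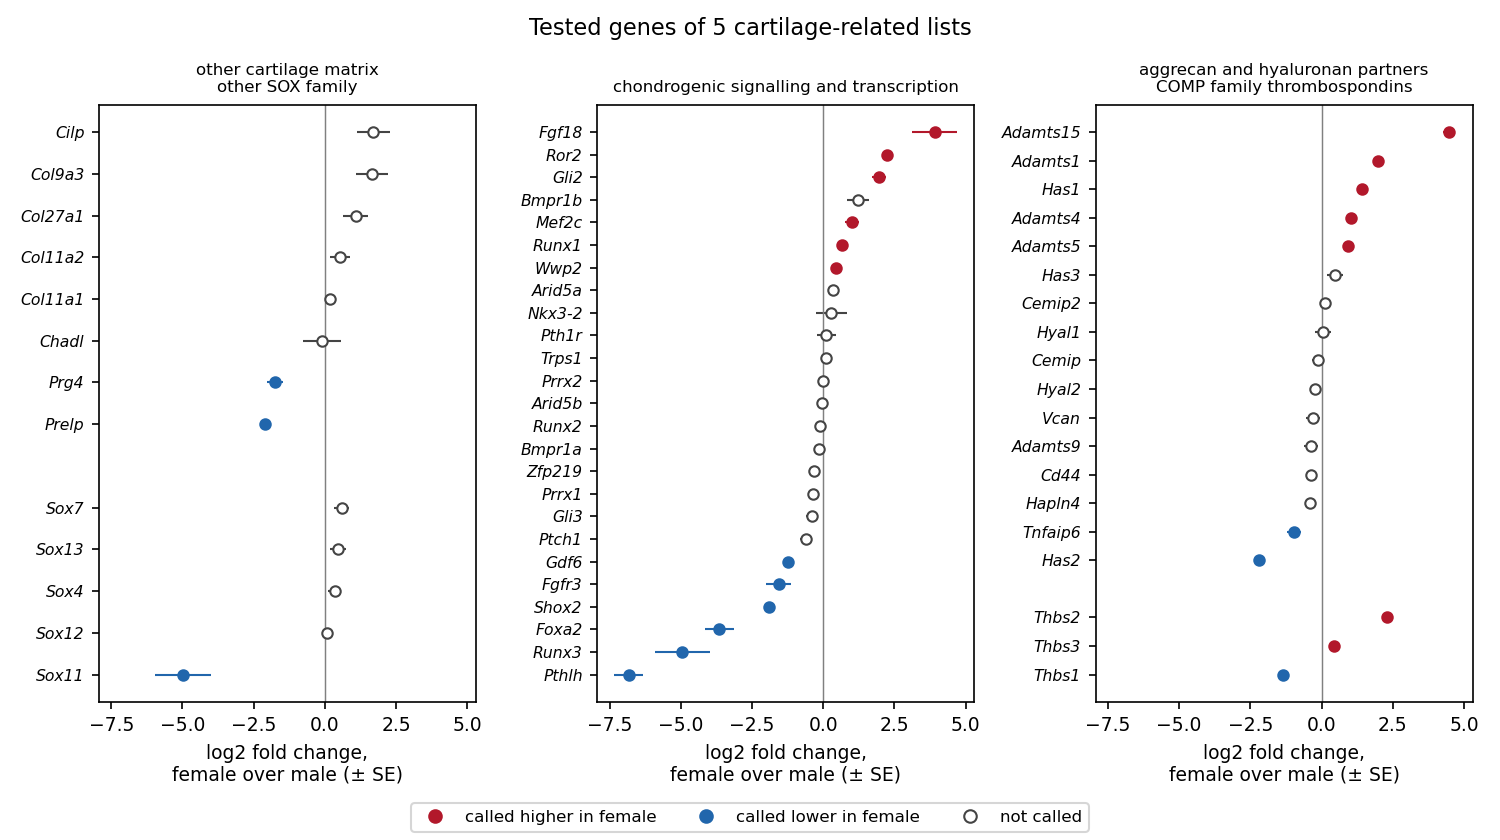
log2 fold change, female over male, with SE for the tested genes of the 5 lists; red points were called higher in female, blue points lower, and open points were not called (edgeR, adjusted p under 0.05). The signalling and transcription list is split evenly, with 6 higher and 6 lower, and 4 of the 5 genes called higher among aggrecan and hyaluronan partners are Adamts genes. Adamts9, also in that list, lies below 0 and was not called.

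Most genes around aggrecan and hyaluronan were expressed, in contrast to Acan and Hapln1. Of 16 tested in a list of 20, 5 were called higher in female, 2 lower and 9 not called, with a median log2 fold change of -0.04. Among all tested genes the shares were 9.68% higher and 8.62% lower. The proteases Adamts15 and Adamts1, which can cut aggrecan and versican, were higher in female: Adamts15 stood at 44.5 ± 4.24 CPM in female cultures and 2.02 ± 0.581 CPM in male ones (log2 fold change 4.47 ± 0.21, edgeR adjusted p = 1.05e-06). Adamts1 stood at 144 ± 8.0 CPM in female cultures and 36.5 ± 2.07 CPM in male ones (1.98 ± 0.11, edgeR adjusted p = 1.92e-06). Adamts9, named after its value was seen, was not called with all libraries (8.54 CPM in female, 11.0 in male). It was called lower without male replicate 3. Of the 3 hyaluronan synthase genes, Has1 and Has2 were called in opposite directions, and Has3, named after its value was seen, was not called (3.21 CPM in female, 2.31 in male). Has1 was higher, at 43.0 ± 3.56 CPM in female cultures and 16.1 ± 0.573 CPM in male ones (1.42 ± 0.12, edgeR adjusted p = 3.29e-05), and Has2 was lower, at 11.3 ± 0.389 CPM in female cultures and 52.1 ± 5.84 CPM in male ones (-2.20 ± 0.13, edgeR adjusted p = 3.53e-06). Vcan, the versican gene and a relative of Acan, stood at 732 ± 90.1 CPM in female cultures and 901 ± 315 CPM in male ones, and the hyaluronan receptor gene Cd44 at 211 ± 8.39 CPM in female and 273 ± 30.9 in male. Neither was called with all libraries (edgeR adjusted p = 0.448 for Vcan and 0.0527 for Cd44). Both were called lower without male replicate 3, where 5 genes of the list were, in a fit that called 16.4% of all tested genes lower. Cd44 was also called lower with RLE or upper quartile scaling, DESeq2, no filter or the replicate block. Without male replicate 2 or any 1 of the female libraries, 1 gene was called lower.

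Comp's own family was represented by other members. Of the 3 thrombospondin genes tested, Thbs2 was higher in female, at 396 ± 20.1 CPM against 79.9 ± 13.2 CPM in male cultures (log2 fold change 2.31 ± 0.14, edgeR adjusted p = 4.17e-06). Thbs3, of Comp's own subgroup, was higher as well, at 41.8 ± 3.62 CPM in female cultures and 30.6 ± 1.91 CPM in male ones (0.45 ± 0.12, edgeR adjusted p = 0.0271), a call lost without female replicate 1, female replicate 2 or male replicate 2. Thbs1, an inhibitor of vessel growth, was lower, at 426 ± 9.87 CPM in female cultures and 1080 ± 265 CPM in male ones (-1.34 ± 0.17, edgeR adjusted p = 0.000464). Thbs4, the remaining relative, had 7 counts in female and 0 in male libraries.

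Genes whose pattern over the 6 libraries lay closest to that of Sox9 were Ext1, Glis2, Sec14l1, Klf6 and Ttyh2. The measure was the root mean square difference of log2 CPM after centring each gene on its mean over the 6 libraries, and it was 0.0405 for Ext1 and 0.0542 for Ttyh2. Ext1, which encodes a heparan sulfate polymerase, averaged 153 CPM in female cultures and 235 CPM in male ones. This ranking follows the choice of gene and was not tested.

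Markers of other cell types were called in some lists and not in others, and those named here were picked after their values were seen. Of 10 fibroblast markers all were tested, 6 were called higher in female and 1 lower, and their summed level was 11849 to 12718 CPM in female and 6540 to 7143 CPM in male cultures. Smooth muscle markers summed to 659 to 668 CPM in female and 808 to 913 CPM in male cultures, most of it Cald1 (541 CPM in female, 710 in male). Of 6 tested, Acta2 (3.23 CPM in female, 20.3 in male) and Cald1 were called lower and the other 4 were not called. Of those not tested, Des went the other way, with 56 counts in female and 4 in male libraries. Myh11 had 9 counts in female and 9 in male libraries, Cnn1 had 3 in female and 12 in male, and Myocd had 4 in female and 0 in male. Tenocyte markers summed to 736 to 820 CPM in female and 281 to 308 CPM in male cultures, nearly all of it Egr1, an early response gene that many cells express. Of 3 tested, Egr1 and Mkx (1044 counts in female, 461 in male libraries) were called higher and Scx was not called. Kera had 42 counts in female and 1 in male libraries, and the defining Tnmd had 0 in female and 1 in male. Osteoblast markers summed to 24988 to 29521 CPM in female and 31261 to 43931 CPM in male cultures, nearly all Spp1. None of the 5 tested was called by edgeR, 1 was higher and 2 were lower at an unadjusted p under 0.05, and the defining Ibsp had 0 counts throughout. Neural crest and Schwann markers summed to 2.26 to 3.09 CPM in female and 5.71 to 9.90 CPM in male cultures, with Foxd3 at 0. Erbb3 was called lower, with 4 counts in female and 185 in male libraries. Mesothelial markers summed to 7.48 to 11.2 CPM in female and 2.08 to 3.98 CPM in male, with Lrrn4 at 0. Of 2 tested, Krt18 was called higher, with 480 counts in female and 30 in male libraries, and Krt19 was not called. Msln had 0 counts in female and 17 in male libraries, and Upk3b had 0 in female and 18 in male. Macrophage markers summed to 12.6 to 18.2 CPM in female and 6.29 to 10.3 CPM in male, with Ptprc, Itgam and Fcgr1 at 0. Of 3 tested, Lyz2 (12.7 CPM in female, 5.22 in male) was called higher, and Cd68 and Csf1r were not called. The part of these lists in the values of Sox9, Sox5 and Col2a1 was not tested.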

How the data were processed

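The authors deposited raw counts, whole reads per gene in each library with no scaling. HISAT2 2.0.5 and featureCounts 1.5 are named, per the submitters' processing notes. Build and strand setting: not given in the sources used here. Among the identifiers of the table, 99.9% were found in GENCODE M21 (GRCm38), and the span of every member was identical there.

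Libraries were grouped by the sex in their titles. All genes were fitted with edgeR 4.0.16 in R 4.3.3 (TMM, filterByExpr with a minimum count of 10, robust quasi-likelihood F test), which tested 14932 genes. P-values were adjusted over all of these by Benjamini-Hochberg, and genes under 0.05 were called. A positive log2 fold change means higher in female. Members, lists and tests were chosen with earlier results of these data known. Named list genes were up to 4 called with the largest change and a mean of at least 10 counts, and up to 2 uncalled with the highest level. Genes with the pattern closest to Sox9 are given, and the same ranking for Matn2 is not reported here. Same-sex libraries all differed by more than sampling noise (chi-square per degree of freedom 7.82 to 78.4). Other settings tried were DESeq2 1.42.0, scaling by RLE or upper quartile, no filter, a stricter filter (mean count of 50 or more), a block on replicate number, and fits without each library.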

Additional observations from a re-analysis of the deposited data

How the results depend on the processing

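The fold changes of Sox9, Sox5, Matn2, Matn4 and Col2a1 kept their sign in all 12 alternatives, except that Matn4 had no value under the stricter filter. They also moved by less than the spread between libraries. In fits without 1 library this could hardly come out otherwise, since leaving out 1 of 3 moves a mean by less than that spread. Over these alternatives Sox9 ranged from -0.69 to -0.60 and Sox5 from -1.45 to -1.01. Among other matrix genes, 2 were called higher with DESeq2 and 2 without the filter (Col9a3 and Cilp in each). With the stricter filter 0 other SOX genes and 3 signalling genes were called lower, as that filter tests fewer genes. Fits without any 1 library called 967 to 2508 genes higher and 903 to 2543 lower in all, with both highest values without male replicate 3, and for the members 0 to 1 called higher and 2 to 3 lower. They called 0 to 2 other matrix genes higher, 3 to 8 signalling genes higher, 1 to 5 aggrecan and hyaluronan partners lower and 1 to 2 thrombospondin genes higher. The cause was not tested. With the replicate number as a block, 1 other matrix gene (Col9a3) was called higher, and no member changed its call. The numbers were not taken to pair the libraries. Deviations of same-numbered libraries correlated at 0.262, -0.0324 and 0.180. The best match was the same-numbered male library for female replicates 1 and 3, and male replicate 3 for female replicate 2. With 3 libraries of each sex these values cannot settle whether the numbers pair them. Counts limit what can be said of Sox6, Hapln1, Comp, Matn3 and Acan, which had 15 or fewer in all.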
